A study of Mus musculus with 7 samples.

Results

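The cells described here are microglia from mouse brains bearing a glioma that the authors' deposited cell table names as low-quality or activated, as against the cells that it names simply microglia, called main microglia here. They were chosen by that name alone and number 251 of the 28644 cells of the study, or 0.876%. The 2 names together cover 414 cells, of which the low-quality or activated ones are 60.6%. Tumours were grown from CT-2A, a mouse glioma cell line, injected into the brain of mice aged 8 to 12 weeks. The Siglece KO group (named KO) held 4 mice with Sall1CreERT2, a tamoxifen-dependent Cre driven from the Sall1 locus, and floxed Siglece alleles. The WT group held 3 mice with the floxed alleles and no Cre. Driver and floxed allele came from B6;129 and B6.129P2 stock, and mice of both groups received 2.5 mg of tamoxifen per injection, daily from day 7 to day 21 after tumour injection and every other day from then on. The tumour-bearing hemisphere was dissociated enzymatically for 30 minutes, stored frozen, and after thawing the live cells with CD45 or CD11b on their surface were sorted and sequenced with droplet 5-prime chemistry, 1 library per mouse. The driver and the loss of Siglece differ between the groups together, so their effects cannot be told apart.

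Microglia are the resident macrophages of the brain parenchyma and are known by the purinergic receptor gene P2ry12, the membrane protein gene Tmem119 and the transcription factor gene Sall1. On activation they are known to raise immediate-early genes, cytokines and chemokines, while markers of the resting state fall. Siglece encodes an inhibitory receptor of myeloid cells that binds sialic acid. In single-cell data a low transcript count and a high mitochondrial share are the usual signs by which a cell is set aside as being of low quality.

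The 251 cells came from all 7 mice: 20, 14, 13 and 34 in KO mice 1 to 4, and 69, 44 and 57 in WT mice 1 to 3. Main microglia numbered 10, 7, 0 and 15 in the KO mice and 44, 48 and 39 in the WT mice, so KO mouse 3 had none and enters no comparison with them. The low-quality or activated cells held 605683 UMIs (unique molecular identifiers, each counting 1 captured transcript), between 24182 in KO mouse 2 and 185688 in WT mouse 1. The 163 main microglia held 1194186 UMIs. Of the 28644 cells, 926 carried a barcode sequence also seen in another library, 5 of them low-quality or activated microglia. KO mice 1 and 2 and WT mouse 3 were female by their transcripts and the others male.

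The cells held the markers of microglia. The name may rest on the expression of the same cells, so the marker levels describe it and do not test it. In CPM (UMIs of a gene per 1000000 UMIs of the summed cells), P2ry12 ran from 135 to 759 over the 7 mice, with a median of 360, and Tmem119 from 368 to 835, with a median of 736. The basement-membrane glycoprotein gene Sparc, also a microglial marker in brain, ran from 289 to 921, with a median of 528. On the mean over mice these 3 genes ranked 2nd among the 23 cell names of the study, after main microglia, and Sall1 ranked 1st at 94.4 ± 73.4 CPM (SD, n = 7). For Sparc the tumour or stromal cells were level with them, at 577 ± 178 CPM against 580 ± 210 (SD, n = 7), so its rank does not set the 2 names apart. Nor does the rank of Sall1 set them apart from main microglia, which stood at 84.8 ± 39.7 CPM (SD, n = 6). Within those 6 mice the mean log2 ratio of Sall1 to main microglia was -0.09 (SD 1.31). Of the other 8 markers 5 ranked 2nd, Siglech 3rd, Fcrls 4th, after both main microglia and the macrophages named proliferating and P5, and Selplg 10th. Over 3824 genes, the profile of the low-quality or activated cells was most like that of main microglia (Pearson r = 0.748 across genes, which are not independent) and next like that of the macrophages named P5 (r = 0.631). The 10 genes with the largest fold over all other cells of the study held none of the 12 microglial markers. They were Ildr2, Csmd3, Sall3, Mlxipl, Afap1l1, Fat3, Sdk1, Plxna4, Capn3 and A830008E24Rik, each with few UMIs (31 to 142), and Sall1 came 16th. Most of those other cells are not microglia, so the fold does not set these genes apart from main microglia. In the 6 mice with both, Capn3 had a mean of 224 CPM against 101 in main microglia, and Mlxipl 215 against 81.9. Sall3 had 122 against 37.5, Csmd3 123 against 35.5, Ildr2 50.8 against 10.7 and Plxna4 60.4 against 8.86. Per cell, Capn3 had 0.541 UMIs against 0.639 and Sall3 0.279 against 0.249. When every cell was thinned to 1200 UMIs, P2ry12 was seen in 39.2% of 227 low-quality or activated cells and in 39.9% of 163 main microglia, Tmem119 in 46.3% and 60.1%, and Sparc in 38.3% and 75.5%. Among 1000 T cells, which should lack all 3, the thinned shares were 0.3%, 0.7% and 0.5%. Before thinning the shares with P2ry12 were 56.4%, 79.1% and 2.0%, at median depths of 2297, 6226 and 5522 UMIs; 24 low-quality or activated cells were shallower than 1200 UMIs and were left out.

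Markers of other cell types were low in UMIs, though several were detected. The 7 monocyte markers summed to 0.00542% to 0.0356% of UMIs per mouse in the low-quality or activated cells and 0.0101% to 0.0289% in main microglia. Of the 5 measured gene by gene against main microglia, 4 were higher in CPM and 2 higher past 2-fold, beside 62.1% and 25.9% of all genes. The 7 tumour-macrophage markers summed to 0.00813% to 0.0603% and 0.0546% to 0.131%, and the 8 T cell markers to 0.00215% to 0.0248% and 0.00109% to 0.0096%. Listed at 0 in the low-quality or activated cells were Lyve1, Cd163 and Cbr2 of border-associated macrophages, Ms4a1 and Pax5 of B cells, Ncr1, Klrb1c and Klre1 of NK cells, Gfap, Aqp4 and Slc1a2 of astrocytes, and Col1a1, Col1a2 and Dcn of stromal cells. Other members of these lists were detected, Clec4n, Pf4 and F13a1 of border-associated macrophages with 9, 8 and 5 UMIs and Cd79b of B cells with 7. Of the oligodendrocyte genes, Mobp and Mog were at 0. Mbp had 26 UMIs (mean 47.0 CPM against 21.1 in main microglia, higher in 6 of 6 mice) and Mag 10 (24.3 against 33.6 CPM). With 605683 UMIs, a count of 0 allows up to 3 UMIs.

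The low-quality or activated cells were shallow, rich in mitochondrial transcripts and poor in ribosomal-protein transcripts. Their median was 2222 UMIs per cell, the lowest of the 23 names, against 6226 in main microglia. They had a median of 1323 detected genes, the 2nd lowest of the 23 names, against 2414. With cells thinned to 1200 UMIs the order turned, with a median of 779 genes in 227 low-quality or activated cells and 715 in 163 main microglia. By mouse the median depth was 3601, 1707.5, 2435 and 2336.5 UMIs in KO mice 1 to 4 and 2550, 2114.5 and 1612 in the WT mice, which was 0.263 (WT mouse 3) to 0.444 (KO mouse 4) of the median of the whole library. The median mitochondrial content was 4.77% of the UMIs of a cell, the highest of the 23 names, against 2.06% in main microglia, and every mouse with both kinds of cell showed the higher value in the low-quality or activated ones. Mitochondrial content passed 5% in 119 of the 251 cells (47.4%), in 16 of the 163 main microglia (9.82%) and in 879 of the other 28230 cells (3.11%). It passed 10% in 21, 0 and 71 cells.

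The ribosomal content divided the 2 kinds of microglia more sharply than the mitochondrial content. Its median was 2.58% in the low-quality or activated cells, the lowest of the 23 names, whereas the other 22 names ran from 10.1% (monocytes P1-P2) to 23.8% (exhausted CD8+ T cells). Under 5% ribosomal content lay 239 of 251 low-quality or activated cells, 6 of 163 main microglia and 351 of 28230 other cells. Of those 351 cells, 95 were macrophages P5, 80 monocytes and 65 B cells. The highest value among the 251 cells was 7.21%, and 20 main microglia lay below it. Since the name may rest on these measures, the differences are a description and carry no test.

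**Figure D1:**
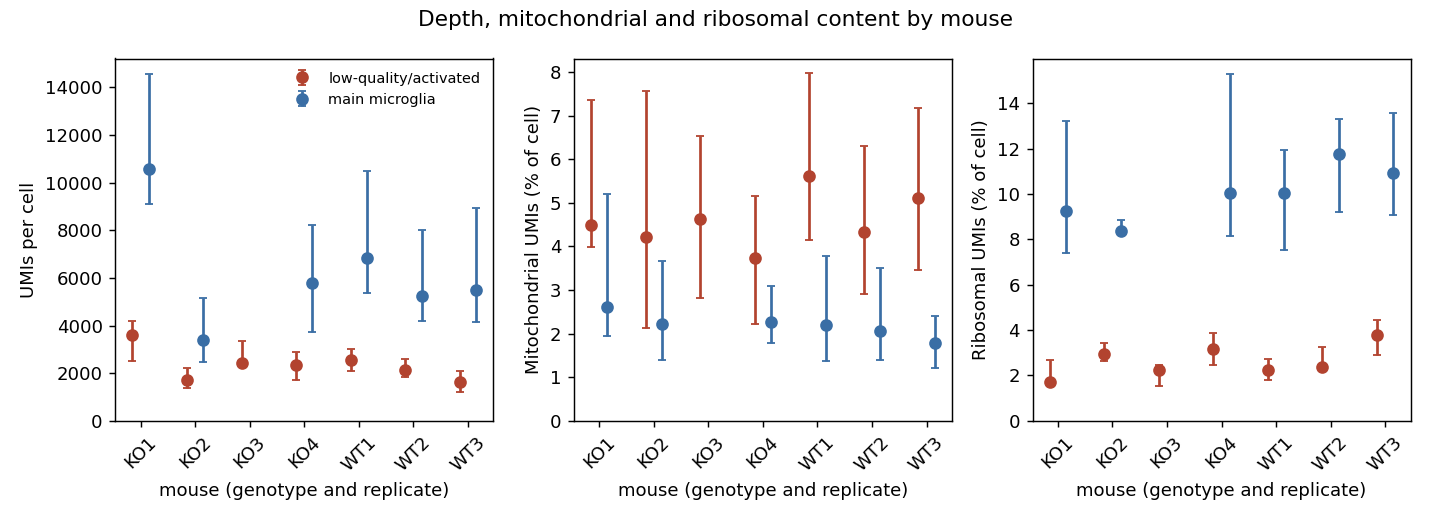
UMIs per cell, mitochondrial percent and ribosomal percent (y axes) by mouse (x axis), as the median with the interquartile range as bars, for low-quality or activated microglia (red) and main microglia (blue; KO mouse 3 had none). The red ribosomal medians lie between 1.73% and 3.77% and the blue ones between 8.35% and 11.8%.

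Across genes, low-quality or activated microglia were compared with main microglia within each of the 6 mice that had at least 5 cells of both, as the mean over mice of the log2 ratio of CPM. Cluster against cluster is no test, so ratios, their spread and their direction per mouse are given without p-values. Among 7299 genes with at least 30 UMIs over both kinds of cell, 1892 (25.9%) were higher past 2-fold and 1001 (13.7%) lower past 2-fold, and the median gene stood at 0.37 on the log2 scale. A CPM value is a share, so it was set beside the number of UMIs per cell. On that scale only 28 genes (0.384%) were higher past 2-fold and 4163 (57.0%) were lower, with a median log2 ratio of -1.19. Most genes with a higher share were therefore present at no more UMIs per cell than in main microglia. When all cells were thinned to the same depth, 995 genes were higher and 1180 lower past 2-fold in CPM. At equal depth the lower genes thus outnumbered the higher ones, the reverse of the order without thinning. The 25.9% and 13.7% of all genes set beside the lists below are from cells that were not thinned, and depend on depth.

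Among genes with the same direction in all 6 mice, the largest mean ratios above main microglia belonged to Snx29, Ptbp2, Fbxo42, Neat1, Rps6ka5, Cables1, Mapk1ip1, Plcl1, Zfp407, Hsph1, Dleu2 and Nlrp1c-ps, from 2.88 down to 2.55 on the log2 scale of CPM. They include a neuronal-type splicing regulator (Ptbp2), an activator kinase of the stress and growth response (Rps6ka5) and the non-coding RNAs Neat1 and Dleu2. Apart from Neat1 and Hsph1, these genes had only 11 (Mapk1ip1) to 70 (Dleu2) UMIs in main microglia. Fbxo42 and Mapk1ip1 had 0 there in KO mice 1, 2 and 4. Cables1 had 0 in KO mouse 1, with a ratio of 6.45 (SD over mice 1.97). Where a sum is 0, the ratio rests on the prior of 0.5 UMI. The largest mean ratios below main microglia included those of Tyrobp, Tspo, Mrpl52, Uqcr11, Cst3, Dctpp1, Rps10, Ifitm3, Svbp, Lamtor4 and Mrps16, from -2.97 up to -2.60. Dctpp1, Svbp and Mrps16 had 3, 4 and 3 UMIs in the low-quality or activated cells. Tyrobp encodes the signalling adaptor DAP12, Cst3 the protease inhibitor cystatin C, and Tspo the mitochondrial outer-membrane protein used as an imaging marker of microglia. Tyrobp stood at 244 to 500 CPM (median 329) in the low-quality or activated cells of 7 mice and at 2602 to 3388 CPM (median 3123) in the main microglia of 6. Cst3 stood at 1333 to 2569 CPM (median 1768) and 7670 to 19892 CPM (median 12378). For neither gene did the ranges overlap.

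**Figure D2:**
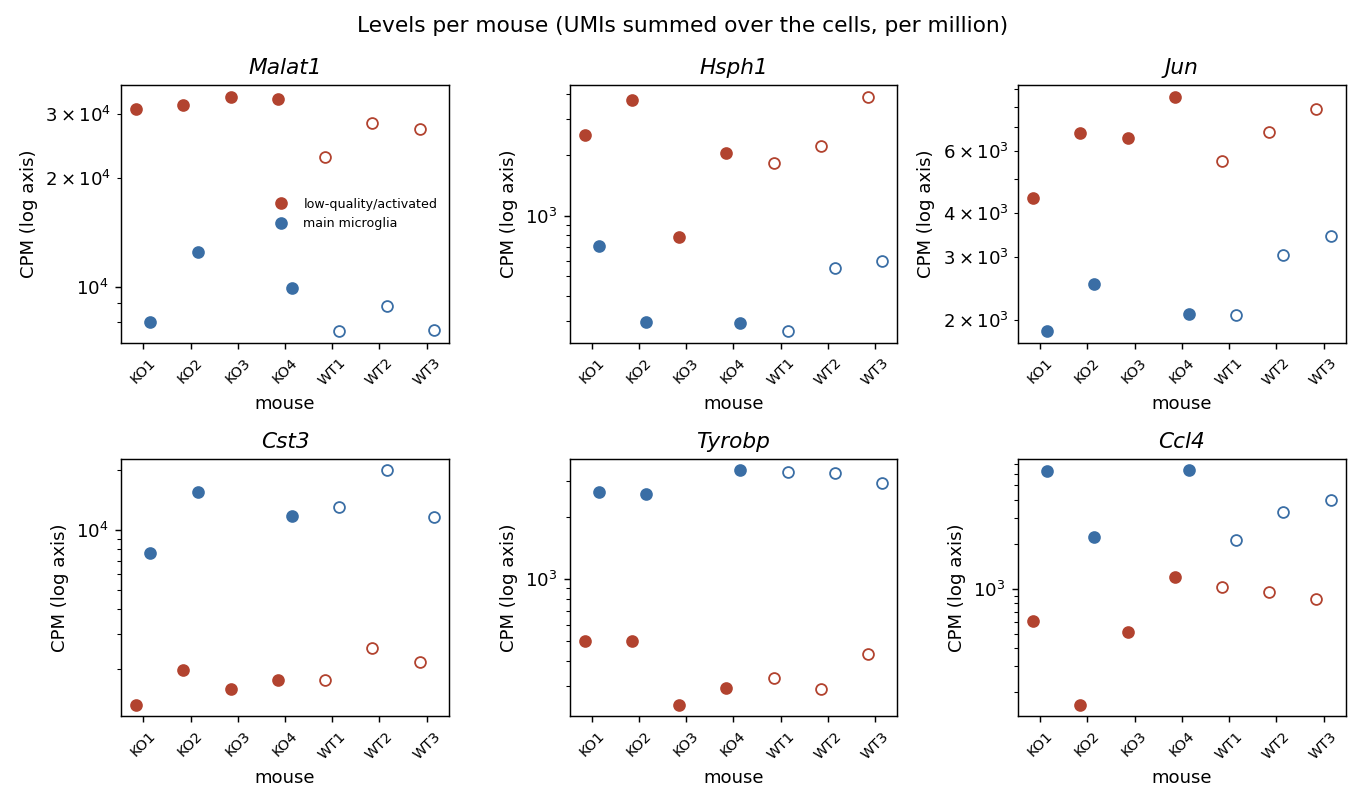
CPM on a log axis (y) by mouse (x) of 6 genes in low-quality or activated microglia (red) and main microglia (blue), filled for KO and open for WT mice. Malat1, Hsph1 and Jun are higher in the red cells of every mouse that has both, and Cst3, Tyrobp and Ccl4 are lower.

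Ribosomal-protein genes were lower almost throughout. Of 85 measured, 0 were higher and 83 were lower past 2-fold in CPM, with a median of -2.04 on the log2 scale. Rps20 was at -1.81, Fau at -2.33 and Rpl13 at -2.20, each lower in 6 of 6 mice. Together the 92 listed genes gave 2.01% to 3.57% of UMIs per mouse in the low-quality or activated cells (2.66% ± 0.53, SD, n = 7) and 9.10% to 13.1% in main microglia (11.4% ± 1.46, SD, n = 6). In UMIs per cell this was 63.8 ± 10.6 against 834 ± 285 (SD). The nuclear-encoded respiratory chain was alike in direction, with 15 of 20 genes lower past 2-fold, 0 higher and a median of -1.67; Cox4i1, a subunit of cytochrome oxidase, was at -2.33 and Ndufs8, of complex I, at -2.47. Of 15 glycolysis and hypoxia genes 10 were lower past 2-fold and 0 higher, where both lists stand beside 13.7% of all genes lower and 25.9% higher, Eno1 at -2.01 and Mif at -1.84 among them.

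Direction followed the length of the gene. Of the 7299 genes, 7192 (98.5%) were found in the GENCODE M21 annotation of GRCm38. They were divided in 5 groups of like size by the span from start to end. In the group with the shortest span (123 to 8115 bases), 8.96% were higher and 36.8% lower past 2-fold, with a median of -0.61 on the log2 scale of CPM. In the group with the longest span (68942 to 1211430 bases), 57.3% were higher and 1.04% lower, with a median of 1.12. Spearman's rho with span was 0.55 across genes, which are not independent and share their libraries, and was 0.55 also without ribosomal-protein and mitochondrially encoded genes. Transcript length gave a rho of 0.38 and the number of exons 0.42. Of 136 long non-coding genes 79 (58.1%) were higher past 2-fold and 6 lower, against 25.2% and 13.9% of 6958 protein-coding genes.

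**Figure D3:**
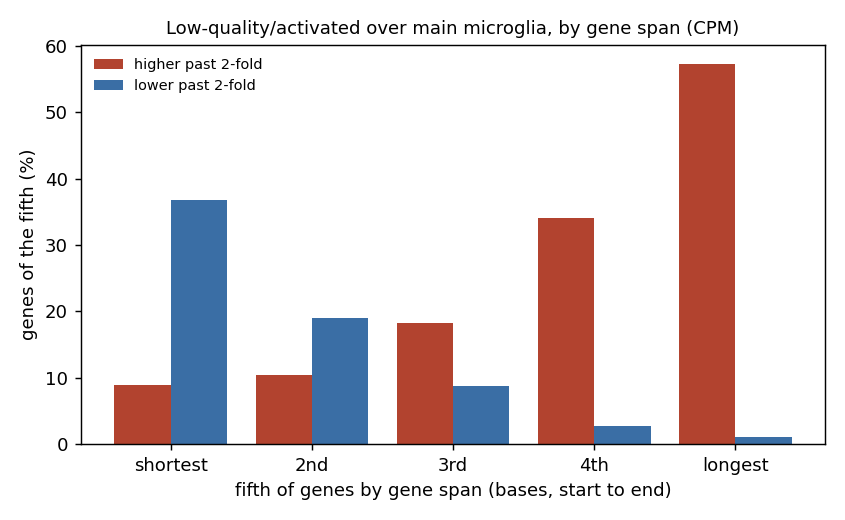
Percent of genes (y) higher (red) or lower (blue) past 2-fold in CPM in low-quality or activated over main microglia, in 5 groups of 7192 genes by span (x). The red share rises from 8.96% in the shortest group to 57.3% in the longest and the blue share falls from 36.8% to 1.04%.

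Transcripts known to stay in the nucleus were among those with a higher share. Malat1, a long non-coding RNA of nuclear speckles, ran from 22786 to 33547 CPM over 7 mice (median 31075) and from 7546 to 12489 in the main microglia of 6 (median 8426), and the ranges did not overlap. It was one of the 657 genes (9.0%) whose mean ratio in UMIs per cell was above 1, at 70.5 against 63.1 UMIs. Neat1, the scaffold RNA of paraspeckles, had a log2 ratio of 2.78 in CPM and 1.22 in UMIs per cell (3.42 against 1.80 UMIs), and Kcnq1ot1, an imprinted non-coding RNA, 2.11 and 0.55. In CPM all 3 were higher in 6 of 6 mice. Their joint share of UMIs was 3.13% ± 0.38 (SD, n = 7), the highest of the 23 names.

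Mitochondrially encoded transcripts were higher as a share and lower per cell. All 13 protein-coding members were above 0 in CPM, against 62.1% of all genes (median 0.99 on the log2 scale, 6 past 2-fold), and their median in UMIs per cell was -0.57. mt-Co1, a subunit of cytochrome oxidase, was at 0.90 in CPM with 21.2 UMIs per cell against 35.5, and mt-Cytb at 1.14. The mitochondrial ribosomal RNA mt-Rnr2 was at 10740 to 22496 CPM (median 16759) against 4745 to 8228 (median 7014), without overlap between the 2 kinds of cell, with a log2 ratio of -0.24 in UMIs per cell.

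Heat shock genes, chaperones and co-chaperones that heat shock factor 1 is known to induce, were higher in part: of 12, 5 were higher past 2-fold and 0 lower, beside 25.9% of all genes higher and 13.7% lower, with a median of 0.78 in CPM beside 0.37 for all genes. Hsph1, a nucleotide exchange factor of Hsp70, stood at 786 CPM (KO mouse 3) to 3888 CPM (WT mouse 3) with a median of 2209, against 269 to 707 (median 425) in main microglia. Its log2 ratio was 2.60 in CPM and 1.04 in UMIs per cell (6.24 against 3.54), higher in 6 of 6 mice. Dnaja1, an Hsp40 co-chaperone, stood at 593 to 2826 CPM (median 1461) against 227 to 480 (median 379), with ratios of 2.13 and 0.57. Bag3, Hsp90aa1 and Dnajb1 had log2 ratios of 1.71, 1.37 and 1.41 in CPM. Hspa8 and Hspa1a were at 0.81 and 0.42, and in UMIs per cell at -0.75 and -1.14.

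Hsph1 and Dnaja1 were the heat shock genes that were higher on both scales by the largest ratios, and their promoters are shown for that reason. The windows are the 150 bases before the most upstream start in RefSeq (GRCm38.p6), 5′ to 3′ on the strand of the gene, chr5:149636337-149636486 on the minus strand for Hsph1 and chr4:40722318-40722467 on the plus strand for Dnaja1, with matches to the heat shock element pair GAANNTTC or TTCNNGAA (both the same on either strand) in capitals.
Hsph1: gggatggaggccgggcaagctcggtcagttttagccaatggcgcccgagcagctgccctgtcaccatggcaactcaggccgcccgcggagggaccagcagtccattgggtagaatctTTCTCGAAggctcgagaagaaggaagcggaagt
Dnaja1: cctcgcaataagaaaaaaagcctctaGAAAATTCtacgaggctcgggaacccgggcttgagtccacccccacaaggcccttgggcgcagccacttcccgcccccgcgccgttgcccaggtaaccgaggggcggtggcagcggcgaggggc
The match begins 33 bases before the start in Hsph1 and 124 bases before it in Dnaja1. In the 250 bases before the start, 12.8% of 32851 RefSeq windows hold either form. Counted by gene, with any of its starts, 14.55% of 27025 genes hold it, as do 7 of the 9 heat shock genes in the table: Dnaja1, Hspa1a, Hspa1b, Hspb1, Hspd1, Hspe1 and Hsph1. A match describes letters, not binding.

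Immediate-early genes, which are transcribed within minutes of a stimulus, were divided. Of 19, 3 were higher and 1 lower past 2-fold, beside 25.9% and 13.7% of all genes. The median was 0.33, near the 0.37 of all genes. The 2 most prominent were subunits of the AP-1 transcription factor. Jun stood at 4429 to 8543 CPM (median 6741) against 1859 to 3449 (median 2298), with a log2 ratio of 1.42, and Fosb at 1625 to 3596 CPM (median 2043) against 483 to 1096 (median 646), with a ratio of 1.72; the ranges of neither overlapped. In UMIs per cell the ratios were -0.14 and 0.16. Fos and Atf3 were at 0.20 and 0.33 in CPM, and Nr4a1, an orphan nuclear receptor, at -1.31 in 5 of 6 mice. The summed share of the list was 3.18% ± 0.52 of UMIs (SD, n = 7), the highest of the 23 names, against 2.27% ± 0.30 (SD, n = 6) in main microglia, which ranked 4th.

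Cytokine and chemokine transcripts, the other usual sign of activation, were lower in the low-quality or activated cells. Of 24 inflammatory cytokines and NF-kB targets, 0 were higher and 10 lower past 2-fold (25.9% and 13.7% of all genes), with a median of -0.83 in CPM and -2.39 in UMIs per cell, beside 0.37 and -1.19 for all genes. The chemokine gene Ccl4 stood at 165 to 1203 CPM (median 857) against 2156 to 6319 (median 3623), without overlap, and Ccl12 at 54.2 to 403 (median 295) against 1152 to 2225 (median 1488). Ccl3 was at -1.93 and Nfkbia, the NF-kB inhibitor that NF-kB itself induces, at -1.11, both lower in 6 of 6 mice, and Il1b at -1.29 in 5 of 6. The list made 0.668% ± 0.14 of UMIs (SD, n = 7), 10th of the 23 names, against 1.55% ± 0.53 (SD, n = 6) in main microglia, which ranked 2nd.

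Genes of the disease-associated state of microglia were lower too. Of 22, 15 were lower and 0 higher past 2-fold, beside 13.7% and 25.9% of all genes, with a median of -1.36 beside 0.37. Apoe, the main lipid carrier of the brain, stood at 2337 to 6530 CPM (median 4812) against 6857 to 18502 (median 8870); the cathepsin gene Ctsd was at -1.17 and the ferritin gene Fth1 at -1.61. Spp1, encoding osteopontin, was at -2.50, lower in 5 of 6 mice with a wide spread (SD 1.99).

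Homeostatic genes were mostly lower. Of 20, 17 were below 0 and 3 above, with a median of -0.74 beside 0.37 for all genes. Past 2-fold 8 were lower, among them the complement genes C1qa (-2.25) and C1qb (-2.49), and 2 were higher, against 25.9% of all genes. These 2 were Tgfbr1, the TGF-beta receptor whose signal maintains microglial identity, at 643 to 1365 CPM (median 896) against 157 to 409 (median 338), and the transcription factor gene Mef2c, at 744 to 982 (median 916) against 140 to 409 (median 255). The ranges of both were apart, and in UMIs per cell the 2 genes were at 0.02 and 0.19 on the log2 scale. Csf1r, the receptor for the microglial growth factor CSF1, was at 0.27 in CPM.

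The counts of the next lists stand beside 25.9% of all genes higher and 13.7% lower past 2-fold, and nothing is called particular to a list from them. Phagocytosis and complement genes included 2 of 20 higher and 7 lower past 2-fold. Mertk, a receptor for dying cells, was at 1.45, with 662 to 1083 CPM (median 910) against 257 to 372 (median 303), whereas the Fc receptor genes Fcer1g, Fcgr3 and Fcgr4 were at -2.45, -1.70 and -2.24. In MHC class I presentation 5 of 11 were lower past 2-fold, B2m at -2.09 and H2-K1 at -0.81, and the list had the lowest share of the 23 names at 0.553% ± 0.054 (SD, n = 7). Class II presentation had 3 of 9 lower past 2-fold and 0 higher, with Cd74 at -0.42. Interferon response genes had 2 higher and 6 lower of 21; Ifitm3 was at -2.72 and Bst2 at -2.34. For p53 and apoptosis genes 4 of 10 were higher and 2 lower past 2-fold, Trp53inp1 at 1.93 and Pmaip1 at 1.59 among those higher, while Cdkn1a was at 0.01. In the list of endoplasmic reticulum and integrated stress 1 of 5 was higher past 2-fold, Sesn2 at 1.46, and Hspa5, the main chaperone of that compartment, was at 0.74.

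**Figure D4:**
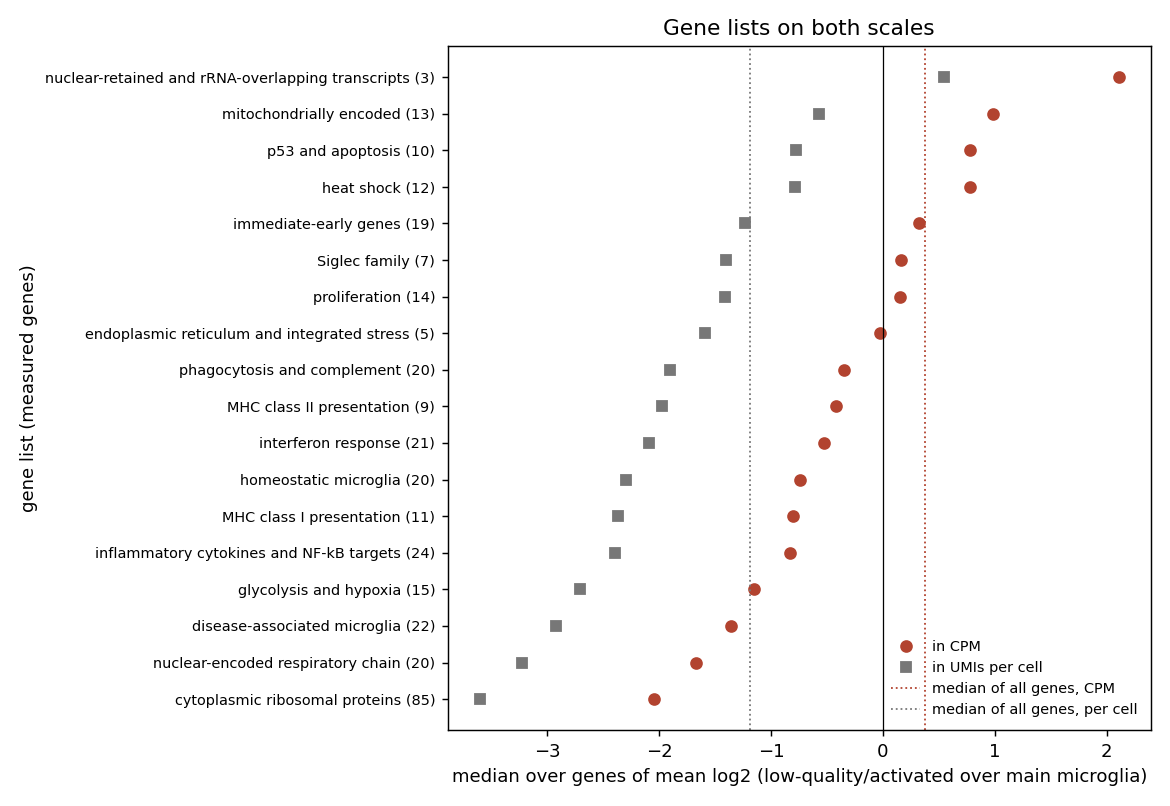
Median over the measured genes of a list (numbers in brackets) of the mean log2 ratio of low-quality or activated over main microglia (x), for 18 lists (y), in CPM (red circles) and in UMIs per cell (grey squares); dotted lines give the median of all 7299 genes on each scale. Nuclear-retained transcripts are the highest at 2.11 in CPM and the sole list above 0 on both scales, and ribosomal proteins are the lowest at -2.04.

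The cell-cycle phases in the deposited table put 23 of the 251 cells (9.16%, exact 95% interval 5.90% to 13.4%) in G2M and 21 (8.37%) in S, against 8 (4.91%, 2.14% to 9.44%) and 22 (13.5%) of main microglia; the intervals cover counting error only. The proliferation antigen gene Mki67 had at least 3 UMIs in 17 and 9 cells, and 46.8% of its UMIs in the low-quality or activated cells came from 5 cells. Proliferation genes had 5 of 14 higher past 2-fold in CPM and 0 lower, beside 25.9% and 13.7% of all genes, but their ratios varied widely between mice (Top2a 1.76, SD 2.64, n = 6).

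Within the 251 cells, those with more mitochondrial transcripts did not hold more activation transcripts. In 3 groups of like size by mitochondrial percent (0.0944 to 3.85%, 3.91 to 6.13% and 6.14 to 16.8%; 84, 83 and 84 cells), the median share of immediate-early genes was 3.66%, 2.92% and 2.66% of UMIs and that of heat shock genes 3.38%, 2.52% and 1.94%. Inflammatory genes stood at 0.595%, 0.519% and 0.465%. The median ribosomal percent was level, at 2.51%, 2.65% and 2.58%, as was that of homeostatic genes at 1.66%, 1.59% and 1.61%. Median depth was 2052, 2225 and 2368.5 UMIs. The 3 groups pool cells of 7 mice and share a denominator with the mitochondrial percent, so they are a description.

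KO and WT mice were compared within the name by tests over mice; whether the naming of cells was independent of genotype is not given in the sources used here. Low-quality or activated cells made up 66.7%, 66.7%, 100% and 69.4% of the annotated microglia of KO mice 1 to 4 and 61.1%, 47.8% and 59.4% of those of WT mice 1 to 3, so the groups did not overlap. Means were 75.7% ± 16.3 (SD, n = 4) and 56.1% ± 7.20 (SD, n = 3), with p = 0.0857 in an exact two-sided permutation test over the 35 ways to divide the mice, where the smallest possible p is 0.0286. Of all cells of the library they made up 1.42%, 0.264%, 0.274% and 0.581% in KO mice and 2.35%, 0.989% and 1.44% in WT mice, a difference in the other direction, with groups that overlapped (exact permutation p = 0.0857). The median depth per mouse differed by 428 UMIs between KO and WT (exact permutation p = 0.514), detected genes by 175 (p = 0.429, exact), mitochondrial percent by -0.76 points (p = 0.143, exact) and ribosomal percent by -0.27 points (p = 0.657, exact). None passed when adjusted over these 4 measures (0.571 to 0.657).

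Siglece, the targeted gene, had 0 UMIs in the low-quality or activated cells of all 4 KO mice and 2, 3 and 3 UMIs in those of WT mice 1 to 3. The pooled WT cells stood at 20.5 CPM, and a count of 0 allows up to 3 UMIs over the KO group, or 14.0 CPM. The KO over WT ratio of the pooled counts, 0 against 8 UMIs, has an exact 95% interval, for counting error only, from 0 to 1.07, so a difference in Siglece was not established at this depth. In main microglia the counts were 2, 1 and 0 against 18, 16 and 4, out of 240083 and 954103 UMIs. The pooled ratio was 0.314, with an exact 95% counting interval from 0.0620 to 0.989. Means were 18.2 ± 18.6 and 38.3 ± 20.6 CPM (SD, n = 3 and 3). The groups overlapped in CPM, since KO mouse 2 (1 of 26904 UMIs) lay above WT mouse 3 (4 of 274608 UMIs). Sall1, the locus that carries the driver, was at 69.4, 0, 108 and 61.4 CPM in the KO mice and 237, 117 and 68.2 in the WT mice and overlapped between groups (adjusted p = 0.563 in edgeR's quasi-likelihood test with these genes kept in the fit). Its pooled ratio, 14 against 63 UMIs, was 0.405 (exact 95% counting interval 0.210 to 0.731). In main microglia Sall1 stood at 34.9, 74.3 and 71.0 CPM in KO mice 1, 2 and 4. WT mice 1 to 3 had 76.0, 154 and 98.3 CPM there, so the groups were narrowly apart. The pooled ratio in main microglia was 0.502 (0.258 to 0.896, for counting error only). The B cell chemoattractant gene Cxcl13 had 0 UMIs in the 4 KO mice and 0, 18 and 1 in the WT mice. In these cells WT mouse 2 alone carries its difference (adjusted p = 0.847 in the same fit). In main microglia Cxcl13 had 2 UMIs in KO and 231 in WT mice. That pooled ratio was 0.0344, with an exact 95% counting interval from 0.00414 to 0.126. Means there were 6.76 ± 11.7 and 230 ± 144 CPM (SD, n = 3 and 3).

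Between KO and WT, 2 of 1788 genes tested (0.112%) passed an adjusted p under 0.05 in edgeR's quasi-likelihood test on UMIs summed per mouse, both higher in KO. At an unadjusted p under 0.05 there were 125 genes (6.99%), 74 higher (4.14%) and 51 lower (2.85%), and DESeq2 called 2 as well. Cdkn1a, which encodes the cell-cycle inhibitor p21 and is a textbook target of p53, stood at 1014, 703, 813 and 773 CPM in KO mice 1 to 4 and at 172, 175 and 360 CPM in WT mice 1 to 3. Every KO mouse lay above every WT mouse, by a log2 fold change of 1.80 (SE 0.31, adjusted p = 0.00220 in edgeR). The counts behind it were 73, 17, 30 and 63 UMIs against 32, 18 and 37. It passed also with sex as a term (1.75, adjusted p = 0.00738) and among cells of at most 5% mitochondrial content (2.02, adjusted p = 0.00304), a setting added after the data were seen. It did not pass without WT mouse 1 (1.57, adjusted p = 0.151) or with 13 cells drawn from each mouse (1.66, adjusted p = 0.0642).

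Lilrb4a, an inhibitory receptor of myeloid cells, was at 1562, 489, 459 and 1023 CPM in the KO mice and 310, 314 and 239 in the WT mice (log2 fold change 1.67, SE 0.34, adjusted p = 0.0354 in edgeR). KO mice 1 and 4 stood well above the other mice. Of its UMIs, 46.9% lay in values that are not whole numbers, as for a gene that shares reads with a near-identical copy, so its level is uncertain. Its relative Lilr4b, with 50.8% of its UMIs in such values, stood at 69.5 ± 57.2 CPM (SD, n = 4) in the KO mice and 109 ± 31.5 CPM (SD, n = 3) in the WT mice (log2 fold change -0.34, adjusted p = 0.956 in edgeR). Lilrb4a no longer passed without KO mouse 1 (log2 fold change 1.25, adjusted p = 0.165 in edgeR), KO mouse 4 (1.61, 0.106), or WT mouse 1 (1.71, 0.270), 2 (1.71, 0.0858) or 3 (1.55, 0.153). It did not pass either with sex as a term (1.61, 0.156), among cells of at most 5% mitochondrial content (2.28, 0.136) or with 13 cells drawn from each mouse (1.59, 0.646). In main microglia Lilrb4a stood at 993, 198 and 485 CPM in KO mice 1, 2 and 4. It stood there at 438, 243 and 361 CPM in the WT mice, so the groups overlapped. Its genotype effects in the 2 kinds of microglia differed by 1.12 on the log2 scale (SE 0.37, adjusted p = 0.596 in edgeR), which did not pass.

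Cdkn1a was higher in KO mice in main microglia as well, at 1248, 483 and 629 CPM in KO mice 1, 2 and 4 against 182, 190 and 452 in the WT mice. The difference between the 2 genotype effects was 0.20 on the log2 scale (SE 0.36, adjusted p = 0.989 in edgeR). In the macrophages P3 and P5 and the monocytes, which also express it, the KO and WT means were 943 ± 125 and 941 ± 85.2, 404 ± 91.6 and 426 ± 78.6, and 1313 ± 240 and 1498 ± 120 CPM (SD, n = 4 and 3). Among the 23 names, KO mice lay entirely above WT mice for Cdkn1a in the 2 kinds of microglia and in no other. They lay entirely below WT mice in cDC2, gamma-delta T cells and precursor-exhausted CD8+ T cells.

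The window before the most upstream Cdkn1a start in RefSeq (GRCm38.p6, chr17:29090829-29090978, plus strand, 150 bases 5′ to 3′) is shown because Cdkn1a is the gene with the lowest adjusted p of the 2 that passed. Capitals mark a match to CATG, 6 bases of any kind and CATG again. These are the core letters of both parts of a p53 binding site and read the same on either strand.
Cdkn1a: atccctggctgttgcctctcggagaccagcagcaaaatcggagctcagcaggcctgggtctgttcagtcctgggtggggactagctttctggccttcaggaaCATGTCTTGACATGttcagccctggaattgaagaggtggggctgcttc
It begins 48 bases before the start. In the 250 bases before the start, 0.490% of 32851 RefSeq windows and 0.570% of 27025 genes hold these letters, and of the 9 listed p53 and apoptosis genes in the table Cdkn1a alone does.

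Of the 13 p53 and apoptosis genes, 5 were expressed highly enough to be tested: Cdkn1a was called, and Bcl2l1 (1.04), Bcl2l11 (0.08), Mdm2 (-0.02) and Pmaip1 (-0.08) had adjusted p from 0.723 to 0.993 in edgeR. Mdm2, the ubiquitin ligase that p53 induces, stood at 171 ± 95.3 CPM (SD, n = 4) in the KO mice and at 188 ± 82.9 CPM (SD, n = 3) in the WT mice. Zmat3, another p53 target, was too low for the filter. Its UMIs were 7, 2, 5 and 9 in the KO mice and 2, 0 and 1 in the WT mice, a ratio of 14.0 with an exact 95% counting interval from 4.22 to 72.7, and with no filter on low counts it was called (log2 fold change 3.43, adjusted p = 0.0204 in edgeR). In main microglia its UMIs were 3, 0 and 1 against 7, 3 and 1.

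**Figure D5:**
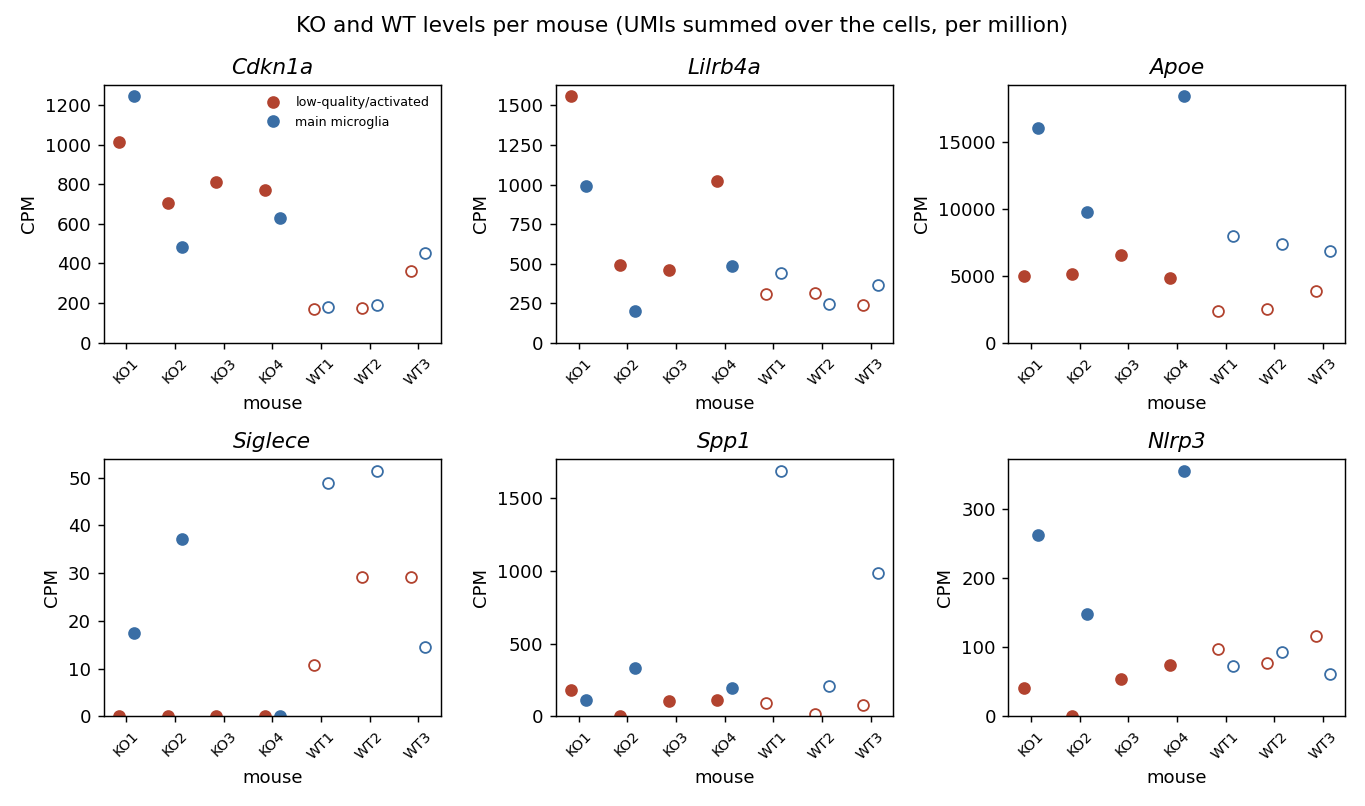
CPM (y) by mouse (x) of 6 genes in low-quality or activated microglia (red) and main microglia (blue), filled for KO and open for WT mice. For Cdkn1a the red KO points lie between 703 and 1014 and the red WT points between 172 and 360; for Spp1 the blue WT points reach 1686 while the red points stay at or below 181.

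Other genes with groups apart in CPM did not pass. There were 137 genes with groups apart among the 1788 tested (7.66%), 89 higher (4.98%) and 48 lower (2.68%) in KO, the 2 called ones included. The first of those higher by unadjusted p were Jdp2, a repressor of AP-1 (1.83), Rassf3 (1.22), Apoe (0.83), Atp6v1c1 (1.19), the receptor tyrosine kinase gene Axl (1.12), Sorl1 (1.24), Gm49839 (1.13), Trpm2 (1.01), Dst (0.75) and Usp35 (1.32), given as log2 fold changes with adjusted p from 0.123 to 0.399 in edgeR. Of those lower they included the microglial marker Fcrls (-1.51), mt-Nd6 (-1.38), the deubiquitinase gene Otud1 (-1.84), Myo1e (-1.51), the cathepsin gene Ctsl (-1.09), Itgam, which encodes CD11b (-1.01), Rab3il1 (-1.23), Olfml3 (-1.08) and Ist1 (-1.27), with adjusted p from 0.0860 to 0.358. Fcrls stood at 181, 41.4, 81.3 and 258 CPM in KO mice and at 625, 438 and 322 in WT mice. It was called with no filter on low counts (adjusted p = 0.00962 in edgeR), without KO mouse 4 (0.0394) and without WT mouse 3 (0.0403), and its adjusted p reached 0.486 with equal numbers of cells. Apoe stood at 4985, 5169, 6530 and 4812 CPM in KO mice and at 2337, 2520 and 3839 in WT mice; in main microglia it stood at 16057, 9776 and 18502 against 7964, 7393 and 6857.

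Homeostatic genes leaned lower in KO. Of 17 tested, 15 had a fold change below 0, against 50.5% of all genes tested (49.5% were above 0), with a median of -0.33 beside -0.00 for all genes tested, and 0 passed. Malat1 in the same cells was at 31075, 31883, 33546 and 33116 CPM in KO mice 1 to 4 and 22786, 28400 and 27339 in the WT mice, without overlap, but did not pass (log2 fold change 0.26, adjusted p = 0.826 in edgeR); groups were apart for 7.66% of all genes tested. P2ry12 was at 236, 289, 406 and 135 CPM in the KO mice and at 759, 496 and 360 in the WT mice, overlapping between KO mouse 3 and WT mouse 3 (log2 fold change -1.19, adjusted p = 0.149 in edgeR). With at least 20 cells per mouse, which leaves KO mice 1 and 4 against the 3 WT mice, it was called (-1.59, adjusted p = 0.0464), and over the other alternatives its adjusted p ran from 0.0677 to 0.899. Of 12 mitochondrially encoded genes all 12 were below 0 with a median of -0.27, beside a median mitochondrial percent that was lower in KO by 0.76 points, and 0 passed. Of 18 immediate-early genes 14 were above 0 (median 0.08), of 18 inflammatory genes 11 (median 0.03) and of 12 heat shock genes 1 (median -0.23), with 0 passed in each. Of 13 disease-associated genes 4 were above 0 and 0 passed. Among Siglec genes, Cd33 was at 458, 827, 650 and 245 CPM in KO mice and 296, 175 and 175 in WT mice, with KO mouse 4 below WT mouse 1 (1.12, adjusted p = 0.226 in edgeR), and Siglech was at 318 ± 255 CPM (SD, n = 4) and 304 ± 82.6 CPM (SD, n = 3), with an adjusted p of 1.00 in edgeR.

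The genotype effect differed between the 2 kinds of microglia for 2 of 2655 genes (0.0753%) in edgeR's test of the genotype-by-subtype term in the 6 mice with both, and 140 (5.27%) had an unadjusted p under 0.05. Both were picked by this test over all 2655 genes, and the choice to print them was made after their values were seen. Spp1 stood at 181, 0 and 110 CPM in the low-quality or activated cells of KO mice 1, 2 and 4 and at 91.6, 19.5 and 77.9 in those of the WT mice. In main microglia it stood at 113, 335 and 193 in KO and at 1686, 206 and 983 in WT mice. The term was 3.32 on the log2 scale (SE 0.64, adjusted p = 0.0247). Nlrp3, the sensor of the inflammasome, stood at 41.7, 0 and 73.6 CPM against 96.9, 77.8 and 117 in the low-quality or activated cells and at 262, 149 and 355 against 73.3, 93.2 and 61.9 in main microglia. Its term was -2.93 (SE 0.62, adjusted p = 0.0331). The counts were small, with 26 and 27 Spp1 UMIs and 11 and 38 Nlrp3 UMIs in the low-quality or activated cells of the 4 KO and 3 WT mice, and without KO mouse 2, which had 7 main microglia, Nlrp3 was not called.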

How the data were processed

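The authors deposited unscaled expected counts, that is UMIs for every gene in each cell, not all of them whole: 4.83% of the UMIs of the microglia lay in values that are not whole. The deposited cell table gives detected genes as counts and mitochondrial and ribosomal content in percent per cell, with the authors' cell names and phases. Per the submitters' processing notes, STARsolo, STAR 2.7.10a, FastQC 0.11.5 and build mm10 were used. How cells were filtered, doublets handled and cells named, and which annotation was used, is not given in the sources used here. The t-SNE coordinates, a score per cell in the authors' deposited table, were not used. Gm42418, AY036118, Ddit3 and Aldoa were not analysed here.

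UMIs were summed per mouse over the cells of a name and rounded to whole numbers, a change from the plan for whole counts. KO was tested against WT in edgeR 4.0.16 (TMM, filterByExpr, robust quasi-likelihood, 1 genotype term, Benjamini-Hochberg over all genes tested) on mice with at least 10 cells; DESeq2 1.42.0 and the other settings are under the closing section. The steps were tested on simulated data for this comparison: of 100 genes changed 4-fold, 84 were tested and 83 recovered, with 5 false calls among the 1572 genes of that run. The same run held 100 genes changed 16-fold, of which 86 were tested and 86 recovered. With 200 genes changed at once and dispersions taken from the fitted trend, adjusted p-values pass more easily than in the data, where 2 genes passed. The recovery therefore checks the steps and is not the power of the comparison. Ratios against main microglia had a prior of 0.5 UMI per sum. Single values were compared by exact permutation over mice. Each mouse is 1 library, so p-values measure the spread between mice. Replicate numbers were not treated as pairs. Sequences are from RefSeq (GRCm38.p6).

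Genes are named when they passed; otherwise the first 10 per direction by p among those with at least 20 UMIs and groups apart; as the 12 largest ratios per direction against main microglia that agreed in all mice; or as the most abundant or most changed members of a list. Fos, Atf3, Zmat3, mt-Rnr2, Nlrp3, Lilr4b and the genes with the largest fold over all other cells were further named after their values were seen. A few genes that these rules name are not reported here. The cells and the lists were chosen with earlier results of these data known.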

Additional observations from a re-analysis of the deposited data

Results flagged for a closer look

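KO mouse 3 stood apart from the other 3 KO mice in the share of low-quality or activated cells among annotated microglia: 100%, from 13 of 13 cells, against 66.7%, 66.7% and 69.4%. Chance puts about 1 in 20 such groups past this limit, and 30 groups were checked.

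The genotype effect on Spp1 was higher in low-quality or activated than in main microglia by 3.32 on the log2 scale, and that on Nlrp3 was lower by a term of -2.93, in edgeR's test of the difference itself.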

How the results depend on the processing

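With all cells of a library as the denominator, the KO minus WT difference in the share of low-quality or activated cells was -0.961 points, in the other direction from the 19.6 points among microglia, which ranged from 11.5 to 22.6 with 1 mouse left out. The difference in median UMIs ranged from 67.5 to 699, in detected genes from 28.8 to 298, in mitochondrial percent from -1.11 to -0.46 and in ribosomal percent from -0.55 to 0.22, the last without WT mouse 3. The 2 genes called between KO and WT became 10 with no filter on low counts (5 in each direction, with the median of all genes at -0.25), 5 with at least 20 cells per mouse (2 KO and 3 WT mice; P2ry12 among them), 1 with sex as a term, 1 without genes with values that are not whole, 1 among cells of at most 5% mitochondrial content (a setting chosen after seeing the data), and 0 with equal numbers of cells per mouse, where 43 of 586 genes had an unadjusted p under 0.05 in edgeR. They ranged from 0 (without WT mouse 1, where 93 genes had an unadjusted p under 0.05) to 3 with 1 mouse left out, and were 1 without KO mouse 1. Same-numbered mice showed no joint deviation from their group means (correlations -0.04, -0.02 and -0.16). The sums rest on 13 to 69 shallow cells per mouse, so such values cannot tell whether the numbers pair mice. With the replicate number as a block 2 genes were called, Cdkn1a and Fcrls, and Lilrb4a was at 1.39 (adjusted p = 0.355 in edgeR). The genotype-by-subtype term was called for 1 gene with at least 10 cells in both. Against main microglia, genes higher past 2-fold numbered 995 at equal depth and 28 in UMIs per cell, and genes lower past 2-fold 469 with a prior of 2 UMIs and 4163 in UMIs per cell. With 1 mouse left out they ranged from 1856 to 2070 and from 1004 to 1041. Siglech, at -0.01 between KO and WT, was at 0.19 with equal cells, 0.11 with sex, 0.063 with the replicate block, 0.18 among cells of at most 5% mitochondrial content and 0.0053 in DESeq2, and ranged from -0.50 to 0.18 with 1 mouse left out. In CPM, 1245 of 1260 values of 126 genes against main microglia stayed within 1 SD over mice, and 0 genes past 2-fold changed sign. These leave out UMIs per cell, where Jun, mt-Co1 and Hspa8 turned to -0.14, -0.66 and -0.75. Of 382 values of 24 genes between KO and WT 354 kept direction and call.

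The smallest mice gave 13 and 14 cells and 24182 to 36904 UMIs, so genes of low level could not be tested, and 4 against 3 mice cannot reach an exact p below 0.0286.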
